A study of Mus musculus with 21 samples.

Results

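Oocytes of *Kif11* genotype fl/del that carried Spo11-Cre, referred to as knockout oocytes, were compared across all transcripts with wt/fl oocytes without Cre. The comparison was chosen by genotype label and holds 8 libraries, 4 of each genotype, of the 21 libraries of the series. Knockout oocytes carried a floxed and a constitutively deleted allele, and Spo11-Cre, which acts from early meiotic prophase, recombines the floxed one. Control oocytes carried a wild-type and a floxed allele and no Cre. The genotypes wt/fl Spo11-Cre (5 libraries) and fl/del (4 libraries) shared Cre or the deleted allele with the knockout and were used for values side by side. In wt/fl Spo11-Cre the Cre acts on the floxed allele, so an effect of Cre and a loss of that allele cannot be told apart. The last part of the library name starts with A in all libraries without Cre, and with B or C in all with Spo11-Cre. The labels do not say what these letters mark, so a difference that follows them cannot be told apart from one that follows Cre. Each library was made from 3 full-grown oocytes at the germinal vesicle stage, taken from females aged 3 to 4 months 48 h after hormone injection, on a C57BL/6 background. A mouse gave 1 or 2 libraries, and the labels do not say which libraries came from the same mouse, so p-values measure the spread between libraries, which may in part be technical.

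KIF11 (kinesin-5) binds microtubules of opposite orientation in pairs and pushes spindle poles away from each other, and mitotic cells that lack its activity form monopolar spindles. Mouse oocytes lack centrioles and build the spindle of meiosis I from many acentriolar organizing centres. At the germinal vesicle stage the oocyte is arrested in meiotic prophase before spindle assembly, its genome is nearly silent in transcription, and its mRNA is a store accumulated during growth. The comparison thus addresses the mRNA store with which an oocyte without *Kif11* would resume meiosis.

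Total counts were 12729969 to 14283549 in wt/fl and 13155893 to 17668498 in knockout libraries, with 18021 to 18529 and 18488 to 19239 genes detected. Markers of the labelled cell type were abundant. The summed level of 18 oocyte markers was 42773 ± 3783 CPM (CPM, a gene's reads for every 1000000 counted in its library, SD, n = 4) in wt/fl and 42097 ± 3036 CPM (SD, n = 4) in knockout libraries, a ratio of 0.984 (two-sided exact permutation test, p = 0.714). *H1foo*, the linker histone of oocytes, reached 9188 and 9453 CPM. Of 30 follicle cell markers, 11 had no count in any of the 8 libraries, among them *Foxl2*, *Amhr2*, *Wt1* and *Pgr*. *Serpine2* made up most of the rest, with mean levels of 411 CPM in wt/fl and 375 CPM in the knockout. *Cyp19a1* followed with 69.1 and 67.9 CPM, and *Nr5a2* with 29.8 and 27.6 CPM. The follicle cell sum ranged from 490.1 to 569 CPM in wt/fl and from 454 to 503 CPM in knockout libraries (ratio 0.923, exact permutation p = 0.0571). The sum of 24 blood, immune and stromal markers lay between 33.1 and 48.7 CPM in wt/fl and between 35.6 and 42.6 CPM in the knockout (exact permutation p = 0.657), with 11 markers at 0, *Ptprc* and *Col1a1* among them. *Pecam1* made up most of this sum, with mean levels of 29.4 CPM in wt/fl and 25.4 CPM in the knockout. A test of 4 against 4 libraries cannot give a p below 0.0286.

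The targeted gene was lower in every knockout library. *Kif11*, counted over all its exons on chromosome 19 (37376403 to 37421859, plus strand, GRCm38), had 38.9, 43.2, 23.8 and 32.2 CPM in wt/fl and 2.70, 1.53, 1.08 and 1.82 CPM in knockout libraries. The groups were far apart, with a log2 fold change of -4.29 ± 0.25 (SE) and an adjusted p of 2.23e-19 (edgeR quasi-likelihood test, Benjamini-Hochberg over all genes). It ranged from 17.6 to 30.5 CPM in wt/fl Spo11-Cre and from 7.49 to 14.6 CPM in fl/del oocytes.

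Beyond *Kif11*, few transcripts passed the test. Of 22383 genes tested, 44 (0.197%) had an adjusted p under 0.05, of which 28 (0.125%) were higher and 16 (0.0715%) lower in knockout oocytes. Most of these differences were small: 32 of the 44 were under 2-fold, and the median absolute change was 1.67-fold. At a mean of at least 10 CPM, 5 of the called genes changed at least 2-fold, namely *Kif11*, *Tmem159*, *Hspb1*, *Crnkl1* and *Slc25a13*. Without adjustment, 2334 genes (10.4%) had p under 0.05, 1204 higher and 1130 lower. The CPM of the genotypes did not overlap in 936 genes (4.18%), of which 39 were among the 44. Of the 7745 genes with a mean of at least 10 CPM, 7588 had a 95% interval of the log2 fold change that lay wholly within 2-fold in either direction. Oocytes were pooled by 3 in each library and levels are relative to the library total, so a change in fewer oocytes and a smaller change in each cannot be told apart.

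**Figure D1:**
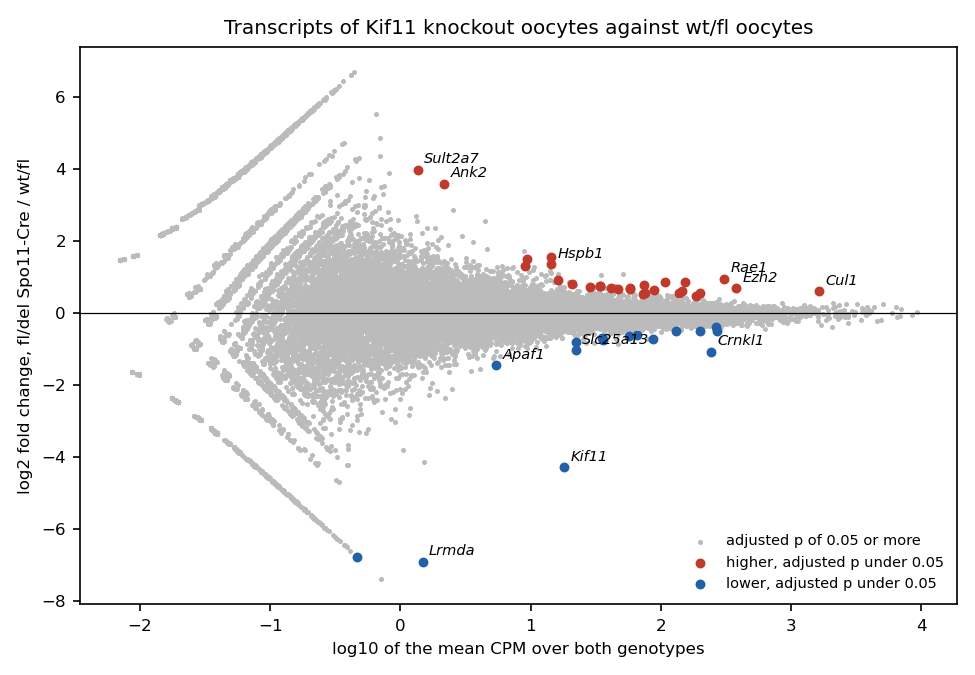
Each point is a tested gene, with the log10 of its mean CPM over both genotypes on the x axis and its log2 fold change (fl/del Spo11-Cre over wt/fl) on the y axis. Red and blue points are the 28 higher and 16 lower genes with an adjusted p under 0.05. *Kif11* stands at -4.29, and apart from genes of low level the other called genes lie near the band of genes that were not called.

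Genes of the spindle, in which KIF11 acts, showed no called change, which does not show equal levels. Of 40 kinesins tested other than *Kif11*, 0 passed the edgeR test at an adjusted p under 0.05, 6 had an unadjusted p under 0.05, and the median log2 fold change was -0.09, beside 0.01 over all genes. *Kif23*, a kinesin of the central spindle, had 705 ± 24.3 CPM in wt/fl and 684 ± 65.4 CPM in knockout libraries (SD, n = 4). *Kif15*, a kinesin that can take over spindle bipolarity from KIF11 in mitotic cells and was named after results were known, was low, at 3.94 and 2.96 CPM (50 to 58 reads in wt/fl and 15 to 82 reads in knockout libraries), with a 95% interval of the log2 fold change from -1.32 to 0.50. *Kif17* came nearest to the threshold, with a log2 fold change of -0.33 and an adjusted p of 0.0843. Of 67 genes of spindle assembly and acentriolar organizing centres, 0 were called by edgeR, 11 had an unadjusted p under 0.05, and the median was -0.11. *Tacc3*, which stabilizes spindle microtubules, had 2487 and 2379 CPM. *Dlgap5*, *Cep192*, *Ran* and *Map4*, named after results were known because they are spindle genes of interest in the study, had log2 fold changes of -0.01, -0.17, 0.32 and -0.37 with adjusted p-values of 1, 0.765, 0.409 and 0.269. Of 34 genes of tubulins and tubulin folding, 0 were called and 1 had an unadjusted p under 0.05, with *Tubb4b* at 1157 and 1077 CPM.

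In the kinetochore, 1 of 43 genes was called. *Cenpk*, a subunit of the constitutive centromere-associated network, had 64.0, 62.0, 75.4 and 78.9 CPM in wt/fl and 105, 104, 101 and 125 CPM in knockout libraries. Every knockout library lay above every wt/fl library, and the log2 fold change was 0.63 ± 0.11 (adjusted p = 0.00121, edgeR). It lay between 92.2 and 105 CPM in fl/del. Of its exon length, 4.45% overlaps *Ppwd1* on the other strand, and the library kit does not mark strand. Of 32 genes of the spindle checkpoint and the anaphase-promoting complex, 0 were called and 3 had an unadjusted p under 0.05. *Pttg1*, the securin that is destroyed at anaphase, had 1997 ± 65.0 and 2216 ± 123 CPM.

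Among genes of meiosis, maternal stores and oocyte identity, none of the lists below held a called gene by edgeR. Of 38 genes of meiotic arrest and resumption, 41 of recombination and synapsis, and 26 of cohesin and condensin, 0 were called, with 4, 5 and 6 at an unadjusted p under 0.05. *Ccnb1*, the cyclin of maturation promoting factor, had 2534 and 2623 CPM, with a 95% interval of its log2 fold change from -0.12 to 0.22. Of 29 genes of the subcortical maternal complex and the Nlrp family, 18 of the zona pellucida and secreted factors, and 25 oocyte transcription factors, 0 were called, with 11, 3 and 2 at an unadjusted p under 0.05. *Gdf9*, a growth factor for the follicle, had 4906 ± 954 and 4260 ± 966 CPM. Of 44 genes of maternal mRNA decay, 0 were called and 10 had an unadjusted p under 0.05, of which 2 were higher, and the median was -0.13. *Pabpn1l*, an oocyte poly(A)-binding protein, fell short of the threshold at a log2 fold change of -0.43 and an adjusted p of 0.0843.

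Mitochondrially encoded genes, cytosolic ribosomal proteins and nuclear genes of oxidative phosphorylation held no gene called by edgeR, and their medians were above that of all genes. The median log2 fold change was 0.26 over 15 mitochondrially encoded genes, 0.16 over 80 cytosolic ribosomal proteins and 0.11 over 77 nuclear genes of oxidative phosphorylation. In these lists 3, 11 and 9 genes had an unadjusted p under 0.05, all with higher levels in the knockout. The ribosomal protein sum was 10371, 9365, 10333 and 8890.0 CPM in wt/fl and 10208, 12298, 10663 and 10232 CPM in knockout libraries. These groups overlapped and the ratio was 1.11 (exact permutation p = 0.171). The ribosomal protein sum ranged from 10307 to 13076 CPM in wt/fl Spo11-Cre and from 9677 to 12200 CPM in fl/del libraries. The mitochondrially encoded sum had a ratio of 1.11 (exact permutation p = 0.371), and wt/fl libraries spread from 1802 to 2796 CPM around knockout libraries of 2332 to 2672 CPM.

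**Figure D2:**
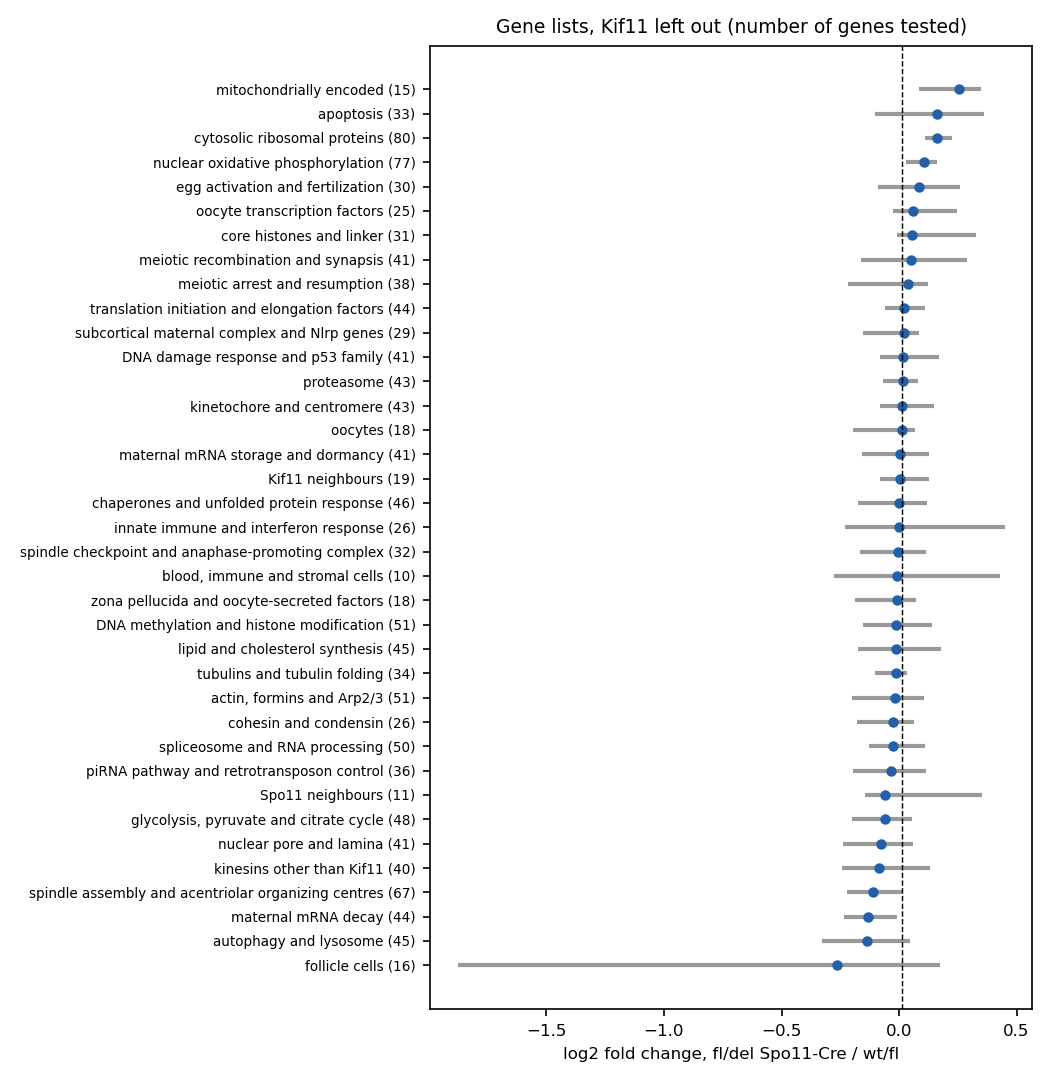
Points are the median log2 fold change (fl/del Spo11-Cre over wt/fl) of each of 37 gene lists with *Kif11* left out, and bars run from the lower to the upper quartile of its genes. The dashed line is the median of all tested genes, 0.01, and list medians lie between -0.26 (follicle cells) and 0.26 (mitochondrially encoded).

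Over the 37 lists, 11 of 1343 genes were called (0.819%, with the 0.197% of all genes beside it), and in 27 lists 0 were called. These shares cannot be compared, since the lists were chosen with earlier results of these data known. The lists also hold more abundant genes, with 1006 of 1343 at a mean of at least 10 CPM, against 7745 of all 22383. In the chosen lists of cell stress and death, the called genes were *Hspb1* and *Apaf1*. *Hspb1*, a small heat shock protein, had 8.47, 6.52, 6.67 and 10.6 CPM in wt/fl and 23.5, 20.8, 13.1 and 25.8 CPM in knockout libraries, 2.56-fold higher (log2 fold change 1.36 ± 0.28, adjusted p = 0.00909, edgeR). The lowest knockout library lay above the highest wt/fl library. In wt/fl Spo11-Cre it had 19.7, 13.9, 12.5, 4.32 and 13.6 CPM, and 3 of these 5 libraries lay above the lowest knockout library. The fl/del libraries lay between 4.16 and 8.55 CPM. The other 45 of 46 tested chaperone and unfolded protein response genes were not called, and *Hsp90aa1*, an abundant chaperone, had 2150 and 2528 CPM with an adjusted p of 0.185.

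*Apaf1*, the core of the apoptosome that activates caspase-9, had 8.12, 8.17, 7.05 and 8.67 CPM in wt/fl and 2.28, 4.41, 2.46 and 2.58 CPM in knockout libraries. The groups did not overlap, and the log2 fold change was -1.44 ± 0.33 (adjusted p = 0.0357, edgeR). Of the 8 fits that left out a library, 2 called it, and the adjusted p was 0.125 without knockout replicate 3. Of 33 apoptosis genes tested it alone was called, and *Bcl2l10*, an antiapoptotic protein abundant in oocytes, had 2797 and 2680 CPM. Of 41 genes of the DNA damage response and the p53 family, 0 were called and 4 had an unadjusted p under 0.05.

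Among 51 chromatin modifiers, 1 rose and 1 fell. *Ezh2*, the histone H3K27 methyltransferase of Polycomb repressive complex 2, had 307, 298, 278 and 275 CPM in wt/fl and 457, 455, 472 and 492 CPM in knockout libraries. The knockout libraries were tightly grouped above all wt/fl libraries, 1.62-fold higher (log2 fold change 0.69 ± 0.08, adjusted p = 8.42e-08, edgeR). *Uhrf1*, which recruits DNMT1 to hemimethylated DNA, had 204, 282, 187 and 259 CPM in wt/fl and 186, 135, 179 and 164 CPM in knockout libraries. The lowest wt/fl library was close to the highest knockout library, and the log2 fold change was -0.49 ± 0.11 (adjusted p = 0.0230, and 0.231 without wt/fl replicate 2). *Dnmt1* itself had 803 and 793 CPM.

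Called genes also lay side by side on chromosomes. *Cul1*, the scaffold of SCF ubiquitin ligases, ends 3999 bp from *Ezh2* on chromosome 6 (47453398 to 47526139, plus strand, and 47530139 to 47595341, minus strand). It had 1228, 1418, 1295 and 1247 CPM in wt/fl and 1973, 1944, 2117 and 1903 CPM in knockout libraries, 1.53-fold higher (adjusted p = 8.42e-08, edgeR). No tested gene of at least 1 CPM lies between them, and the other 5 such genes within 250 kb, among them *Cntnap2* and *Pdia4*, were not called.

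*Rae1*, an mRNA export factor and spindle checkpoint protein, and *Rbm38*, an RNA-binding protein, lie 4758 bp apart on chromosome 2 (173000117 to 173015739 and 173020498 to 173034734, plus strand). Both are in the neighbourhood of *Spo11*, the promoter of which drives the Cre. The name of the Cre line in the paper marks a transgene, and the paper does not give its insertion site. *Rae1* had 216, 205, 215 and 192 CPM in wt/fl and 431, 344, 410.4 and 432 CPM in knockout libraries. It rose 1.94-fold (log2 fold change 0.96 ± 0.09, adjusted p = 3.33e-11, edgeR), the lowest p after *Kif11*. *Rbm38* had 90.4, 127, 99.99 and 140.4 CPM in wt/fl and 175, 193, 154 and 178 CPM in knockout libraries (log2 fold change 0.61 ± 0.12, adjusted p = 0.00591). In wt/fl Spo11-Cre, *Rae1* had 320.3 to 393 CPM and *Rbm38* 155 to 279 CPM. They were 169.9 to 213 and 84.3 to 90.5 CPM in fl/del. Of the 11 tested genes listed around *Spo11* these 2 were called, and *Aurka*, a spindle kinase of that neighbourhood, had 516 and 463 CPM (adjusted p = 0.491). Of 19 genes around *Kif11*, 0 were called and 0 had an unadjusted p under 0.05.

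*Naa20*, the catalytic subunit of the N-terminal acetyltransferase NatB, and *Crnkl1*, a spliceosome component, lie 1053 bp apart on chromosome 2 (145902099 to 145916425, plus strand, and 145917479 to 145935014, minus strand) and were called in opposite directions. *Naa20* had 98.6, 109, 105 and 122 CPM in wt/fl and 202, 192, 177 and 229 CPM in knockout libraries, 1.83-fold higher (adjusted p = 2.31e-07, edgeR). *Crnkl1* had 516, 487, 156 and 158 CPM in wt/fl and 143, 139.9, 175 and 166 CPM in knockout libraries. The groups overlapped: wt/fl libraries 1 and 2, whose names share a prefix, were high, and libraries 3 and 4, which share another, stood at the knockout level. The log2 fold change of -1.07 ± 0.18 (adjusted p = 0.000326) became -0.02 (adjusted p = 0.996) without wt/fl libraries 1 and 2. The range of *Crnkl1* was 145 to 164 CPM with wt/fl Spo11-Cre and 416 to 477 CPM with fl/del.

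**Figure D3:**
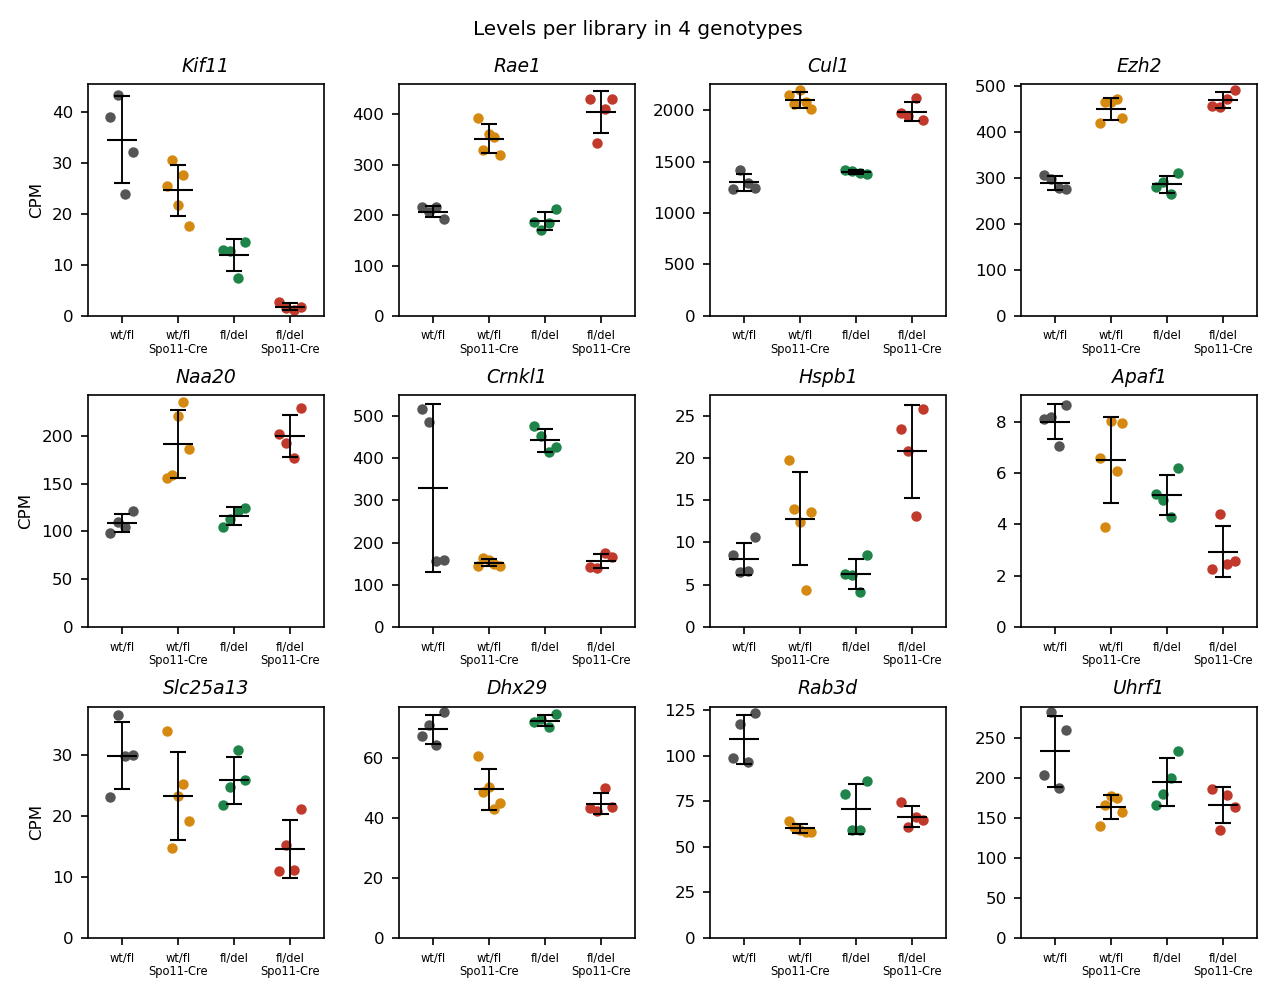
Points are the CPM of single libraries in the 4 genotypes for 12 called genes, and bars are the mean and SD. *Rae1*, *Cul1*, *Ezh2* and *Naa20* are high in both genotypes with Spo11-Cre, *Hspb1* has its highest mean in fl/del Spo11-Cre, and the wt/fl libraries of *Crnkl1* fall into 2 pairs.

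The other genes with the largest rises were of low to moderate level. *Tmem159*, a lipid droplet protein, had 12.5, 5.73, 7.58 and 3.28 CPM in wt/fl and 22.1, 20.9, 18.9 and 23.9 CPM in knockout libraries, 2.93-fold higher (adjusted p = 0.000881, edgeR). *Trpm4*, a calcium-activated cation channel, rose 2.49-fold (adjusted p = 0.0110). The noncoding transcripts *E330020D12Rik* and *Gm45040* rose 2.84-fold and 1.81-fold (adjusted p = 0.00355 and 0.000479). *Ank2*, an ankyrin that anchors membrane proteins, had 0, 0.550, 0.606 and 0.156 CPM in wt/fl and 1.42, 6.06, 5.04 and 3.65 CPM in knockout libraries (adjusted p = 0.0293). *Sult2a7*, a sulfotransferase of a family of near-identical copies, had 8 counts over the wt/fl libraries and 149 over the knockout libraries, a ratio of 16.0 (95% exact counting interval 7.93 to 37.8, adjusted p = 0.0241), with 6.76 CPM in 1 knockout library and 0.792 to 1.37 CPM in the other 3. DESeq2 gave neither of these last 2 genes an adjusted p.

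Among genes of metabolism, 1 of 48 of glycolysis and the citrate cycle was called, and of 45 of lipid and cholesterol synthesis 0 were called by edgeR, with 8 at an unadjusted p under 0.05. *Idh3g*, a subunit of mitochondrial isocitrate dehydrogenase and the called gene of the first list, had 109.6, 117, 103 and 114 CPM in wt/fl and 183, 168, 171 and 133 CPM in knockout libraries (log2 fold change 0.56 ± 0.10, adjusted p = 0.00179, edgeR). Outside these lists, *Slc25a13*, the mitochondrial aspartate-glutamate carrier, had 23.2, 36.7, 29.9 and 30.0 CPM in wt/fl and 11.0, 15.3, 11.2 and 21.2 CPM in knockout libraries. No knockout library reached the wt/fl range, and the log2 fold change was -1.04 ± 0.20 (adjusted p = 0.00406). *Acsl3*, a long-chain acyl-CoA synthetase, fell (log2 fold change -0.51, adjusted p = 0.00728), and *Acot13*, an acyl-CoA thioesterase, rose (0.48, adjusted p = 0.0226).

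Other genes that fell were *Rab3d*, *Dhx29*, *Fbxl20*, *Fbxl6*, *Popdc2*, *Gpr35*, *Sept14* and *Ighg2b*. *Rab3d*, a GTPase of secretory vesicles, had 98.9, 117, 96.6 and 124 CPM in wt/fl and 74.7, 61.1, 66.2 and 64.5 CPM in knockout libraries (log2 fold change -0.72 ± 0.12, adjusted p = 0.000301, edgeR). *Dhx29*, a helicase that helps ribosomes scan structured leaders, had 67.2, 70.8, 64.2 and 75.3 CPM in wt/fl and 43.1, 42.3, 49.8 and 43.6 CPM in knockout libraries (-0.64 ± 0.12, adjusted p = 0.00281). Of 44 translation initiation and elongation factors, a list that does not hold *Dhx29*, 0 were called by edgeR and 6 had an unadjusted p under 0.05. In *Rab3d* and *Dhx29* all knockout libraries were below all wt/fl libraries. *Fbxl20* and *Fbxl6*, F-box proteins of SCF ligases, had log2 fold changes of -0.60 and -0.39 (adjusted p = 0.0168 and 0.0477). *Popdc2*, a cAMP-binding membrane protein, *Gpr35*, a G protein-coupled receptor, and *Sept14*, a septin, had log2 fold changes of -0.71, -0.75 and -0.81 (adjusted p = 0.00751, 0.0106 and 0.0404). *Ighg2b*, an immunoglobulin constant region annotated on chromosome 12, had 316 ± 33.2 CPM in wt/fl and 224 ± 18.6 CPM in knockout libraries (adjusted p = 0.00186). Against wt/fl Spo11-Cre, log2 fold changes were 0.12 for *Rab3d*, 0.10 for *Fbxl20*, 0.02 for *Fbxl6*, 0.07 for *Gpr35* and 0.01 for *Ighg2b*. They were -0.17 for *Dhx29*, -0.45 for *Popdc2* and -0.18 for *Sept14*, and none of these genes was called against that genotype.

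In other fixed lists, *Bst2*, an interferon-induced antiviral protein, rose 1.74-fold (adjusted p = 0.0293, edgeR) and was the 1 called gene of 26 innate immune genes. *Arpc3*, a subunit of the Arp2/3 complex, rose 1.61-fold (adjusted p = 0.0337) and was the 1 called gene of 51 actin genes. *Timd4*, a phosphatidylserine receptor, had 58.7, 57.9, 66.9 and 59.5 CPM in wt/fl and 91.2, 89.8, 90.3 and 86.7 CPM in knockout libraries (adjusted p = 0.00728). Called genes outside the rule for named genes, given after their values were seen, were *Zcchc7*, an RNA surveillance factor (1.71-fold, adjusted p = 1.34e-05), *Rnf25*, a ubiquitin ligase (1.58-fold, 0.0106), and the members of repeated families or pseudogenes *Naip1*, *Xlr3b*, *Dcpp3*, *Gm7525*, *Gm13041* and *Gm13058*. The last group rose 1.46-fold to 1.70-fold, and near-identical copies could have shared their reads.

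*Lrmda* and *Gm28363*, of low level, were nearly absent from knockout libraries. *Lrmda* had 0, 0, 4.09 and 7.73 CPM in wt/fl, 1 count in knockout library 1 and 0 in the other 3 (adjusted p = 0.00394, edgeR). Its wt/fl libraries split by name prefix, and without libraries 3 and 4 the log2 fold change turned to 1.56 (adjusted p = 0.913). The fl/del libraries of *Lrmda* split by name prefix too, at 0 and 0.119 CPM in libraries 1 and 2 and 9.99 and 8.91 CPM in libraries 3 and 4. *Gm28363* had 49 counts over the wt/fl libraries and 0 over the knockout libraries (adjusted p = 0.0232, edgeR). That is at least 18.97-fold lower at a floor of 3 counts over the group. By library the wt/fl counts were 13, 0, 10 and 26, so wt/fl library 2 held no read either and the groups overlapped. DESeq2 gave *Gm28363* no adjusted p.

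Of the 44 calls, 18 held in every fit that left out 1 of the 8 libraries but kept the other of its name prefix. Those of *Hspb1*, *Rbm38*, *Trpm4*, *Popdc2*, *Acsl3*, *Rnf25* and *Lrmda* were lost in 1 such fit, with adjusted p-values of 0.0636 (without wt/fl replicate 2), 0.0569, 0.0706 and 0.0639 (wt/fl replicate 1), 0.0698 (knockout replicate 3), 0.0719 (wt/fl replicate 3) and 0.0505 (wt/fl replicate 4). The calls of *Gpr35*, *Fbxl20*, *Sult2a7*, *Acot13*, *Ank2*, *Bst2*, *Fbxl6*, *Gm28363*, *Arpc3* and *Sept14* were lost in 2 to 7 of the 8 fits. Their highest adjusted p-values were 0.165 (wt/fl replicate 4) for *Gpr35*, 0.139 (wt/fl replicate 2) for *Fbxl20*, 0.241 and 0.109 (knockout replicate 1) for *Sult2a7* and *Bst2*, and 0.109 (wt/fl replicate 4) for *Gm28363*. They were 0.167, 0.168, 0.204 and 0.136 without knockout replicate 2 for *Acot13*, *Ank2*, *Fbxl6* and *Arpc3*, and 0.206 without knockout replicate 3 for *Sept14*. Among repeated families and pseudogenes, *Gm13041* and *Gm7525* were lost in 3 of the 8 fits, *Xlr3b* in 4, and *Dcpp3* and *Gm13058* in 5. Their highest adjusted p-values were 0.0824, 0.344 and 0.224 without knockout replicate 2 for *Gm13041*, *Gm7525* and *Dcpp3*, 0.168 without knockout replicate 3 for *Xlr3b* and 0.0732 without wt/fl replicate 4 for *Gm13058*.

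Libraries whose names share a prefix in pairs may come from the same mouse, which the labels do not say. With the counts of each such pair summed, 28 of the 44 genes were called. Among those not called, the adjusted p was 0.0549 for *Fbxl20*, 0.0563 for *Uhrf1*, 0.0566 for *Gm13058*, 0.0582 for *Popdc2* and *Rnf25*, 0.0619 for *Gm13041*, 0.0622 for *Timd4*, 0.0755 for *Dcpp3*, 0.0799 for *Apaf1*, 0.0812 for *Bst2*, 0.100 for *Arpc3*, 0.103 for *Sept14*, and 0.158 for *Fbxl6* and *Acot13* (edgeR). All of these kept their direction. With both libraries of a prefix left out, 8 of the 44 genes were called in all 4 fits, which rest on fewer libraries. Of these 4 fits, *Crnkl1* was called in 2, *Hspb1* in 1, and *Apaf1*, *Uhrf1*, *Trpm4* and *Gpr35* in 0.

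The knockout was also set beside wt/fl Spo11-Cre, with Cre and a single floxed allele on which it acts, and fl/del, with the deleted allele and no Cre. These comparisons share libraries with the first, so they are not independent of it. Genotypes with and without Cre also differ in the letter in their library names, which cannot be told apart from Cre. Against wt/fl, 491 genes (2.19%) were called in wt/fl Spo11-Cre and 5 (0.0223%) in fl/del oocytes. Knockout oocytes differed from fl/del oocytes in 54 genes (0.241%) and from wt/fl Spo11-Cre oocytes in 8 (0.0357%). These 8 were *Kif11*, *mt-Rnr2*, *Lrmda*, *Gm30198*, *Igf1os*, *Gm5141*, *Tcf4* and *Sumo2*. *mt-Rnr2*, the large mitochondrial ribosomal RNA, had 459.9 to 596 CPM in knockout and 261 to 342 CPM in wt/fl Spo11-Cre libraries (log2 fold change 0.69, adjusted p = 1.22e-05). *Sumo2*, a ubiquitin-like modifier, had 42.5 to 45.4 CPM in the knockout and 42.9 to 142 CPM in wt/fl Spo11-Cre libraries, so the ranges overlapped (adjusted p = 0.0413).

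For single genes the log2 fold changes of the knockout against wt/fl, against wt/fl Spo11-Cre and against fl/del differed in pattern. They were 0.61, -0.11 and 0.49 for *Cul1*, 0.69, 0.03 and 0.69 for *Ezh2*, and 0.96, 0.17 and 1.08 for *Rae1*. They were 1.36, 0.67 and 1.68 for *Hspb1*, with adjusted p-values of 0.00909, 0.702 and 0.000351. They were -1.44, -1.17 and -0.83 for *Apaf1*, with adjusted p-values of 0.0357, 0.306 and 0.538, and -1.04, -0.70 and -0.84 for *Slc25a13* (0.00406, 0.306 and 0.0441). Against wt/fl Spo11-Cre alone, log2 fold changes were 0.01 for *Bst2*, -0.07 for *Arpc3*, 0.12 for *Trpm4*, -0.06 for *Zcchc7* and -0.04 for *Rnf25*. They were 0.17 for *Timd4*, 0.24 for *Idh3g*, 0.31 for *Cenpk*, 0.62 for *Tmem159* and -0.004 for *Uhrf1*. None of these genes was called against wt/fl Spo11-Cre.

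**Figure D4:**
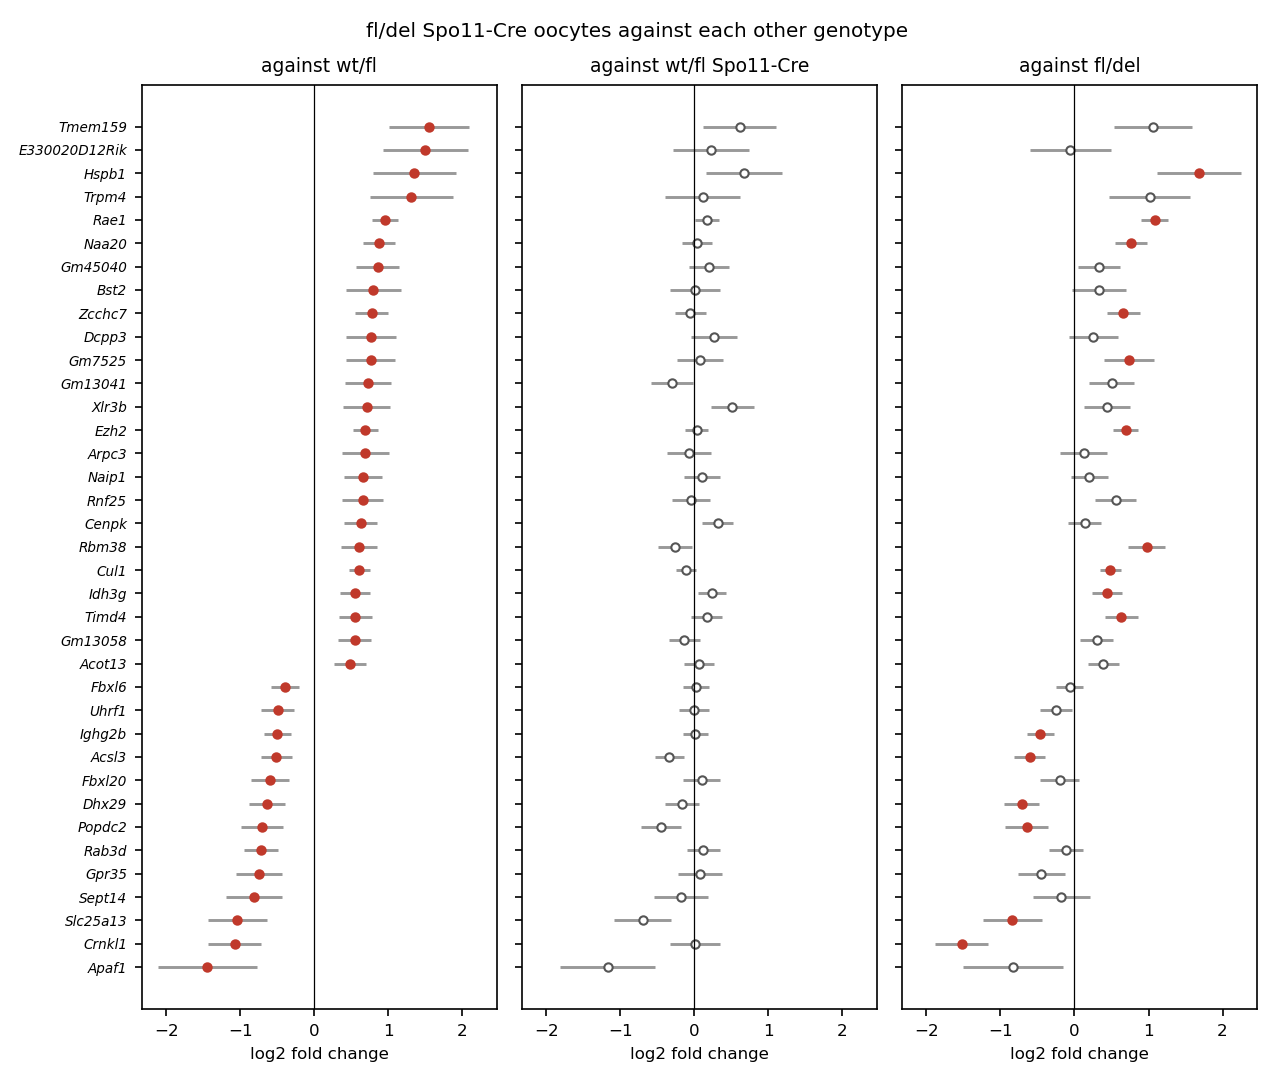
Points are log2 fold changes of the knockout against each of the other 3 genotypes, a panel each, with 95% intervals, for 37 of the called genes. *Kif11* and 4 genes of low level are among those left out, for scale, and filled points have an adjusted p under 0.05. All points are filled against wt/fl, by which the genes were chosen, and none against wt/fl Spo11-Cre.

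A non-additive difference, the log2 change with Cre in fl/del less that in wt/fl oocytes, was called for 23 genes (0.103%), 14 positive and 9 negative. Of these, *Kif11*, *Lrmda* and *Rab3d* were also among the 44. *Kif11* had a value of -2.32 (adjusted p = 1.21e-05, edgeR), so its fall with Cre was larger on the log2 scale where the other allele was deleted. In CPM the fall was alike, from a mean of 34.5 to 24.6 CPM (9.92 CPM) in wt/fl and from 11.9 to 1.78 CPM (10.1 CPM) in fl/del oocytes, and this difference in CPM was not tested. *mt-Rnr2* had 1.06 (adjusted p = 5.71e-06), with means of 457 CPM in wt/fl, 312 CPM in wt/fl Spo11-Cre, 350 CPM in fl/del and 514 CPM in knockout libraries. *Gm8817*, a long noncoding RNA, *Tuba3b*, an alpha tubulin, and *Lingo2*, a membrane protein, had 3.24, 1.36 and 1.17 (adjusted p = 0.00222, 0.0197 and 0.0485). *Tmsb10*, an actin-sequestering protein, and *Igf1os*, antisense to *Igf1*, had -0.92 and -1.44 (both adjusted p = 0.0485). *Rab3d* had 0.72 (adjusted p = 0.0485) and was lower than wt/fl in each of the other 3 genotypes, at 58.1 to 64.3 CPM with Cre and 59.3 to 86.4 CPM in fl/del.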

How the data were processed

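After trimming by fastp and alignment to GRCm38 by HISAT2 2.2.1, the authors obtained counts of uniquely mapped reads from featureCounts 2.0.3 on an Ensembl annotation. The deposited counts are whole numbers without normalization. The deposited TPM values were used only as an alternative, and how the authors computed them is not given in the sources used here. Libraries were amplified by SMART-seq v4 without molecular identifiers, so intervals from counts cover counting error only.

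Genes counted in 3 or more of the 17 Spo11-Cre background libraries were fitted with edgeR 4.0.16 (TMM, glmQLFit, glmQLFTest) in R 4.3.3, with Benjamini-Hochberg adjustment over all genes. CPM used library totals. For summed lists, exact permutation tests were two-sided (scipy 1.17.1), and DESeq2 1.42.0 was an alternative. The code was tested on simulated data. At 10 CPM or more it called 0 of 25 genes changed 1.25-fold, 13 of 25 changed 1.5-fold and 22 of 25 changed 2-fold. At 1 to 10 CPM it called 4 of 25 genes changed 2-fold, so smaller changes can be missed. It also called 6 genes that were not changed. The simulated libraries were independent, and more genes were changed than were called in the data, so recovery in the data may be lower. Gene models came from GENCODE.

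Genes named were *Kif11*, up to 10 per direction with the largest change (mean of at least 1 CPM, no overlap), up to 10 further ones by level, up to 4 per list, neighbouring called pairs, and up to 4 non-additive genes per direction. *Cul1* and *Ezh2* are neighbours once genes under 1 CPM are passed over, a condition added after seeing the data. The comparison and the lists were chosen with earlier results of these data known. Some called genes are not reported here.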

Additional observations from a re-analysis of the deposited data

Results flagged for a closer look

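Of 110 groups of 4 libraries examined for a single library far from the others (Dixon's test at the 95% level), 8 had one, and chance gives about 1 in 20. In knockout libraries these were *Sult2a7* at 6.76 CPM, *Apaf1* at 4.41 CPM, *Dhx29* at 49.8 CPM, *Cenpk* at 125 CPM, *Lrmda* at 0.0711 CPM, *Igf1os* at 44.4 CPM and *Zcchc7* at 112 CPM. In wt/fl libraries it was *Popdc2* at 52.5 CPM.

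The log2 change with Cre differed between fl/del and wt/fl oocytes, by the test of that difference in edgeR, for 9 of the named genes. On the log2 scale the difference was -2.32 for *Kif11*, 0.72 for *Rab3d*, 3.24 for *Gm8817*, 1.36 for *Tuba3b*, 1.17 for *Lingo2*, 1.06 for *mt-Rnr2*, -8.80 for *Lrmda*, -1.44 for *Igf1os* and -0.92 for *Tmsb10*. The value of *Lrmda* depends on the prior count, since 3 of the 4 knockout libraries held no read of it. Its wt/fl and fl/del libraries also split by name prefix.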

How the results depend on the processing

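The number of genes called depended on the fit, and the direction of the 44 genes did not, except for *Lrmda*, which turned to 1.56 without wt/fl libraries 3 and 4. DESeq2 called 166 genes (85 higher, 81 lower, 95 non-additive), no filter on low counts 185 (111, 74 and 138), filterByExpr 29 (18 higher, 2 non-additive), and the counts deposited with *Kif11* over exon 1 called 82 (46, 36 and 42). A fit of all 21 libraries called 4 non-additive genes, and sums of libraries with a shared name prefix called 11, with 33 genes called in all, 28 of them among the 44. Without 1 library, 30 to 71 genes were called, 19 to 39 higher and 11 to 32 lower, with 4 to 60 non-additive, the fewest in all without knockout replicate 2 and the most without knockout replicate 1. In fits added after seeing the data, leaving out both libraries of a name prefix gave 25 genes (12 higher) without knockout libraries 1 and 2, 33 (10 lower, 5 non-additive) without knockout libraries 3 and 4, 33 (8 lower, 6 non-additive) without wt/fl libraries 1 and 2, and 35 non-additive genes without wt/fl libraries 3 and 4. With TMM library sizes, the follicle cell ratio of 0.920 had an exact permutation p of 0.0286. The cause was not tested for any of these.

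The replicate numbers did not pair the libraries (correlations of deviations of -0.08, -0.16, -0.04 and 0.15 over 7745 genes). With the replicate block, 230 genes were called (133 higher, 97 lower, 96 non-additive), and 159 (96 higher, 63 lower) with the block in a fit of the compared libraries only.

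Of the 44 genes, 8 were called in all 22 alternatives: *Kif11*, *Cul1*, *Ezh2*, *Rae1*, *Naa20*, *Zcchc7*, *Rab3d* and *Gm45040*. In all 8 fits without a library, 18 were called, and in all 4 fits without both libraries of a prefix, 8 were called. Genes under 10 CPM have wide intervals, and a missing call there does not show equal levels.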

Other observations

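The called genes were spread over the chromosomes. Chromosome 13 had the highest share of tested genes called, 5 of 1083 (0.462%). Of 27 genes tested on the mitochondrial chromosome and 467 on chromosome 18, 0 were called by edgeR.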
